A study of Mus musculus with 12 samples.

Results

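Lamina-associated domains (LADs) of mouse embryos depleted of Rif1 at the 4-cell stage were set against those of control embryos at the 8-cell stage, the stage that normally follows, to describe where the 2 maps match and where they depart. The comparison uses 6 of the series' 12 samples, the 3 siRif1 4-cell and the 3 siControl 8-cell replicates, by the pooled LAD list of each group. These are 2 of 4 lists and hold 1390 of 2729 LADs. Zygotes of the genotype (C57BL/6J x CBA) x DBA/2J received 20 µM siRNA, directed against Rif1 or a control, between 17 and 18 h after hCG. Between 46 and 48 h, all embryos of both groups were injected at the late 2-cell stage with RNA for AID-Dam-LaminB1 (20 ng/µL), Tir1 (250 ng/µL) and membrane-eGFP (100 ng/µL), and were held in 500 µM auxin. Auxin was taken away at 54 h in the siRif1 4-cell group, which was collected at 60 to 62 h, and at 66 h in the siControl 8-cell group, which was collected at 72 to 74 h. Each replicate was a pool of 16 to 24 blastomeres, and needed 4 to 6 of the 4-cell or 2 to 3 of the 8-cell embryos. The 2 groups differ in siRNA and in stage at once, so the parts of the 2 in any difference cannot be told apart.

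In DamID, the bacterial adenine methyltransferase Dam is fused to a protein of interest, here lamin B1 of the nuclear lamina, and marks GATC sites in the DNA that comes near it. The auxin-dependent degron on the fusion, together with the auxin receptor Tir1, limits the marking to the hours after auxin is removed. LADs are long, mostly gene-poor and weakly transcribed regions that lie at the nuclear edge, and in the mouse embryo they are laid down anew after fertilisation. Rif1 is a chromatin protein that brings protein phosphatase 1 to DNA, restrains the firing of replication origins and sets late replication, which is common in LADs.

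Each list is pooled over its 3 replicates, holds positions on a grid of 100 kb and carries neither replicate values nor read depth. No spread between replicates and no p-value can therefore be given, and the SDs below are over 19 autosomes and describe chromosomes. A list made from pooled blastomeres does not show in what share of cells a region lay at the lamina. The lists hold no RNA levels, so neither the depth of the Rif1 knockdown nor markers of the embryonic stage could be looked at. The labels do not say whether replicates were separate collections. Chromosome X was not analysed here.

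Promoters of 4 departing genes are shown as examples that differ widely in base composition, and the medians of all departing genes are given further on. Sox2, a core pluripotency factor, and Tmpo, which encodes the lamina-associated polypeptide of the inner nuclear membrane, were LAD in siRif1 4-cell embryos and outside LADs in siControl 8-cell embryos. Cntn4, a neuronal cell adhesion gene, and Olfr1124, an olfactory receptor gene, were LAD in siControl 8-cell embryos and outside LADs in siRif1 4-cell embryos. The windows are the 250 bases before a gene start, the first entry for each gene in the RefSeq promoter table of GRCm38.p6, written 5′ to 3′ on the gene's strand, with each CG dinucleotide in capitals.
Sox2 (chr3:34649745-34649994, plus strand): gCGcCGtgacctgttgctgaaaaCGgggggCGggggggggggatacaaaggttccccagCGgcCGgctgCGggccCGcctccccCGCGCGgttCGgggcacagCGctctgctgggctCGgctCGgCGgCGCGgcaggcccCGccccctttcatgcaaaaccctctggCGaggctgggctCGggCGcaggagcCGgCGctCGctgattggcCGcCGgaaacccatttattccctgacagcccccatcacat
Tmpo (chr10:91171620-91171869, minus strand): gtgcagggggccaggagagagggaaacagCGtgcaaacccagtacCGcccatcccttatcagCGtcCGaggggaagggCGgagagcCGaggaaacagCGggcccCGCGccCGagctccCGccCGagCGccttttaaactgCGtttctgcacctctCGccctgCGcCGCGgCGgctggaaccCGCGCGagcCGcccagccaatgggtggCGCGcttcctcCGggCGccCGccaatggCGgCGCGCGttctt
Cntn4 (chr6:106118515-106118764, plus strand): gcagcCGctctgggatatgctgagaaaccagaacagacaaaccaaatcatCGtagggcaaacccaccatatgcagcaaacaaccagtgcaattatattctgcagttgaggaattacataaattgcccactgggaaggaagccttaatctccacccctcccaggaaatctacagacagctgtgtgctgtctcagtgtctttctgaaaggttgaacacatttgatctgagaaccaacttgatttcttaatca
Olfr1124 (chr2:87434239-87434488, plus strand): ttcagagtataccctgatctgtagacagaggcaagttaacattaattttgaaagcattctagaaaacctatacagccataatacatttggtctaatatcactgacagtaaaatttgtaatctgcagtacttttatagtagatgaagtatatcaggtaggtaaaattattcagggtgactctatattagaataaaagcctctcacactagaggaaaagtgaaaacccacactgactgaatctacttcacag
The Tmpo and Cntn4 starts lie inside the annotated gene and are not its outermost start. The Sox2 window held 27 CG dinucleotides and had a GC content of 72.0%, and the Tmpo window held 32 at 70.8%. The Cntn4 window held 2 CG dinucleotides at 44.4% GC, and the Olfr1124 window held 0 at 34.0%. The first pair of windows is thus rich in CG and the second pair poor in it. GATC, the site that Dam marks and its own reverse complement, occurred 0 times in the Sox2 and Tmpo windows and 1 time in each of the other windows, and 40.6% of the promoters of all genes hold it.

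The siRif1 4-cell and siControl 8-cell maps covered almost the same length of the genome and had the same state over most of it. LADs covered 1038.4 Mb (43.5%) of the 2384.9-Mb span in siRif1 4-cell embryos and 1066.7 Mb (44.7%) in siControl 8-cell embryos. The lists shared 791.7 Mb, while 246.7 Mb were LAD in siRif1 4-cell embryos alone, 275.0 Mb in siControl 8-cell embryos alone and 1071.5 Mb in neither. The state was the same over 78.1% of the span (77.8% ± 3.04 per chromosome, SD, 19 chromosomes). Of the siRif1 4-cell LAD bases, 76.2% lay in siControl 8-cell LADs, which cover 44.7% of the span. Of the siControl 8-cell LAD bases, 74.2% lay in siRif1 4-cell LADs, which cover 43.5%. Departures therefore ran in both directions and were of like length, rather than being a shortfall of either map.

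The Jaccard index, the shared bases as a share of the bases in either list, was 60.3% for this pair (59.2% ± 6.37 per chromosome). Against the same siControl 8-cell list, the index was 45.9% (45.2% ± 6.73) for siControl 4-cell embryos and 56.0% (54.4% ± 6.70) for siRif1 8-cell embryos, which had reached the same stage as the control. The siRif1 4-cell index was the higher on 19 of 19 chromosomes beside that of siControl 4-cell embryos, and on 16 of 19 beside that of siRif1 8-cell embryos. These 3 values rest on a common list and are not independent of each other. The siControl 4-cell list is also shorter, at 785.7 Mb (32.9%), and a shorter list bounds the index.

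Coverage was close on average and differed by chromosome in both directions. The siRif1 4-cell list covered more on 8 of 19 chromosomes, and the mean difference was -1.36 ± 9.34 percentage points (SD, 19 chromosomes). On chromosome 9, siRif1 4-cell LADs covered 66.2% and siControl 8-cell LADs 49.1%, the highest difference at 17.0 points. There, 94.8% of the siControl 8-cell LAD bases were also LAD in siRif1 4-cell embryos, and 70.4% the other way. On chromosome 17, the coverages were 20.6% and 40.2%, the lowest difference at -19.6 points. There, 91.5% of the siRif1 4-cell LAD bases lay in siControl 8-cell LADs and 46.9% the other way. On these chromosomes, 1 map was thus nearly held within the other. The genes followed, with 209 of 1201 protein-coding genes of chromosome 9 LAD in siRif1 4-cell embryos alone and 27 in siControl 8-cell embryos alone. On chromosome 17 these counts were 9 and 151 of 1043. Over all 20144 protein-coding genes, 6.52% were LAD in siRif1 4-cell embryos alone and 8.81% in siControl 8-cell embryos alone. The Jaccard index was highest on chromosome 1, at 69.1%, and lowest on chromosome 17, at 44.9%.

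**Figure D1:**
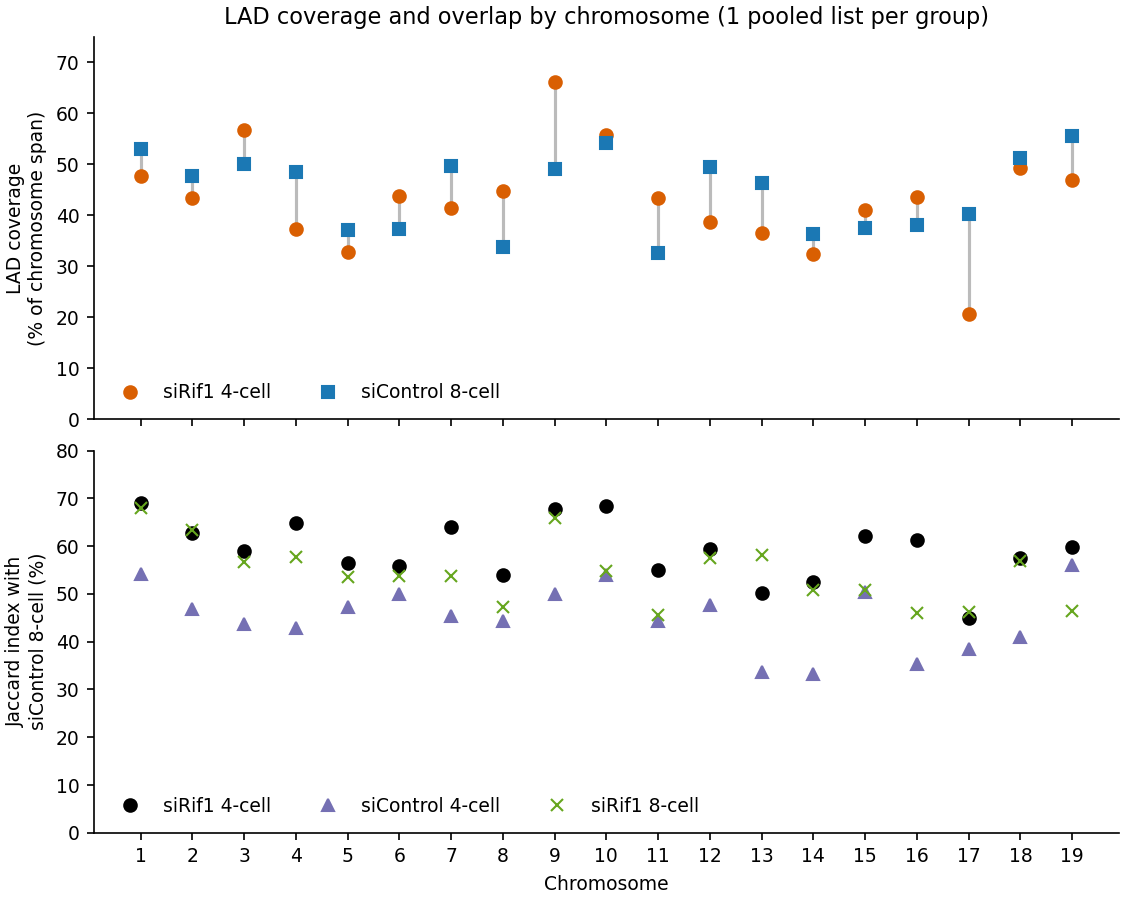
Upper panel, LAD coverage in percent of each chromosome's span for the siRif1 4-cell and siControl 8-cell lists, joined by a line. Lower panel, Jaccard index in percent of each of the other lists with the siControl 8-cell list. Each point is 1 pooled list on 1 of 19 chromosomes, so no error bar can be drawn. Chromosome 9 (66.2% and 49.1%) and chromosome 17 (20.6% and 40.2%) lie at the ends of the coverage differences, and the siRif1 4-cell index lies above the siControl 4-cell index on 19 of 19 chromosomes.

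Most LADs had a counterpart, and long LADs more often than short ones. Of 644 siRif1 4-cell LADs, 491 (76.2%) had at least 50% of their length in siControl 8-cell LADs, 229 lay wholly in them and 78 (12.1%) did not touch them. Of 746 siControl 8-cell LADs, 519 (69.6%) had at least 50% of their length in siRif1 4-cell LADs, 267 lay wholly in them and 159 (21.3%) did not touch them. The untouched LADs were short, with a median of 0.5 Mb and a maximum of 2.6 Mb in the siRif1 4-cell list, and 0.4 Mb and 1.6 Mb in the siControl 8-cell list. Among siControl 8-cell LADs of at most 0.3 Mb, 64 of 143 (44.8%) were shared, against 26 of 27 (96.3%) of those over 5 Mb. In the siRif1 4-cell list these counts were 47 of 76 (61.8%) and 19 of 21 (90.5%). The siControl 8-cell map thus held more short LADs, and more of its LADs lacked a counterpart.

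Where LADs matched, their borders were often displaced by a few grid steps, with neither map reaching further out throughout. A total of 347 pairs of LADs, 1 from each list, overlapped each other and no further LAD of either list, with a median length of 1.1 Mb in both lists. The siRif1 4-cell LAD was the longer in 157 of these pairs, the siControl 8-cell LAD in 146, and 44 had equal lengths. Of their 694 borders, 156 were at the same position, the siRif1 4-cell border lay further out at 283 and the siControl 8-cell border at 255, and the median displacement was 0.2 Mb. Over all borders inside the span, 470 of 1270 (37.0%) siRif1 4-cell borders lay within 100 kb of a siControl 8-cell border of the same direction, as did 470 of 1471 (32.0%) the other way. Other LADs were divided in the other map. A 5.4-Mb siRif1 4-cell LAD on chromosome 8 (60100001 to 65500000) met 5 siControl 8-cell LADs, and a 9.1-Mb siControl 8-cell LAD on chromosome 19 (13900001 to 23000000) met 4 siRif1 4-cell LADs.

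The longest regions that were LAD in both maps spanned several Mb on chromosomes 2, 4, 9 and 15. The longest of 670 shared stretches spanned 7.0 Mb at the start of chromosome 9 (3000001 to 10000000) with 33 protein-coding genes, among them the glutamate receptor gene Gria4, the guanylate cyclase gene Gucy1a2 and the growth factor gene Pdgfd. The next ran over 6.6 Mb of chromosome 15 (89600001 to 96200000), with Tmem117, Pdzrn4 and Nell2. A stretch of 6.1 Mb on chromosome 4 (99000001 to 105100000) held the reelin adaptor gene Dab1, the phosphodiesterase gene Pde4b and the receptor gene Ror1. The chromosome 15 and chromosome 4 stretches were also LAD over 100.0% of their length in siControl 4-cell embryos, whereas that on chromosome 9 was LAD there over 57.1%. A stretch of 6.0 Mb on chromosome 15 (64100001 to 70100000) held the potassium channel gene Kcnq3, Asap1 and the adenylate cyclase gene Adcy8, and 5.6 Mb on chromosome 2 (12200001 to 17800000) held Malrd1, Plxdc2 and Nebl. The median shared stretch was 0.8 Mb, and the 114 of at least 2 Mb made up 354.9 Mb.

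Departures were mostly short, and about as many of their bases adjoined a single LAD of the other map as did not. Bases that were LAD in siRif1 4-cell embryos alone fell into 567 stretches with a median of 0.3 Mb. Of these bases, 51.9% (128.0 Mb) extended a siControl 8-cell LAD, that is, adjoined it on 1 side, 30.0% (74.1 Mb) closed a gap between siControl 8-cell LADs, and 18.1% (44.6 Mb) touched none. Bases that were LAD in siControl 8-cell embryos alone fell into 603 stretches, also with a median of 0.3 Mb. Of these, 49.6% (136.5 Mb) extended a siRif1 4-cell LAD, 23.0% (63.2 Mb) closed a gap and 27.4% (75.3 Mb) touched none. Freestanding stretches thus numbered 76 in the siRif1 4-cell map and 157 in the siControl 8-cell map.

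The longest stretches that were LAD in siRif1 4-cell embryos alone lay on chromosomes 8, 9 and 11. On chromosome 11, 3.2 Mb (12300001 to 15500000) with the actin nucleator gene Cobl and Pom121l12 closed a gap between siControl 8-cell LADs. This stretch was LAD over 100.0% of its length in siRif1 8-cell embryos and over 15.6% in siControl 4-cell embryos. On chromosome 9, 2.8 Mb (10000001 to 12800000) with most of the neuronal adhesion gene Cntn5 closed a gap and was LAD over 64.3% in siRif1 8-cell and 0% in siControl 4-cell embryos. These stretches were outside LADs in control embryos over most of their length at either stage. In contrast, 2.7 Mb of chromosome 8 (89200001 to 91900000, with Fto, the chromatin remodeller gene Chd9 and Tox3) was LAD over 88.9% in siControl 4-cell embryos. A freestanding 2.6 Mb of chromosome 9 (53800001 to 56400000, 32 genes, among them Scaper, Peak1 and Dmxl2) was LAD there over 92.3%. The 2.8 Mb on chromosome 8 at 5200001 to 8000000 held no protein-coding gene.

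The longest stretches that were LAD in siControl 8-cell embryos alone lay on other chromosomes. On chromosome 7, 3.2 Mb (85000001 to 88200000) with 33 genes, among them the glutamate receptor gene Grm5, the oxidase gene Nox4 and the pigment gene Tyr, closed a gap between siRif1 4-cell LADs. On chromosome 18, 2.3 Mb (71200001 to 73500000) held the netrin receptor gene Dcc. On chromosome 4, 2.1 Mb (75700001 to 77800000) held most of the receptor phosphatase gene Ptprd. The stretches with Grm5 and Ptprd were LAD over 0% of their length in siControl 4-cell embryos, and that with Dcc over 21.7%. In siRif1 8-cell embryos, the stretch with Ptprd was LAD over 9.52%, that with Grm5 over 43.8% and that with Dcc over 78.3%. Another, 2.0 Mb on chromosome 2 (87400001 to 89400000), held 90 genes, of which the longest were the olfactory receptor genes Olfr1234, Olfr1213 and Olfr1223.

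The longest LAD of each list met both shared and departing regions. The 11.2-Mb siRif1 4-cell LAD on chromosome 9 (3000001 to 14200000), with Cntn5, Maml2 and Gria4, lay over 71.4% of its length in siControl 8-cell LADs. The 10.1-Mb siControl 8-cell LAD on chromosome 7 (82500001 to 92600000), with the synaptic scaffold gene Dlg2, Grm5 and Tmem135, lay over 63.4% in siRif1 4-cell LADs.

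The other lists separate the departing regions in part. Over the whole span, siControl 4-cell LADs covered 32.9% and siRif1 8-cell LADs 42.9%. Of the bases that were LAD in siRif1 4-cell embryos alone, 42.6% were LAD in siControl 4-cell embryos (43.8% ± 16.9 per chromosome). In siRif1 8-cell embryos 43.9% of them were LAD (42.2% ± 12.2), close to the share of the whole span. A further 31.7% (78.1 Mb) were LAD in neither of these groups and so were LAD in siRif1 4-cell embryos and in no other list. Of the bases that were LAD in siControl 8-cell embryos alone, 20.8% were LAD in siControl 4-cell embryos (21.4% ± 9.53) and 52.8% in siRif1 8-cell embryos (51.8% ± 15.3), with 37.5% (103.0 Mb) in neither. The departures of the siRif1 4-cell map thus included more bases that were also LAD in control embryos of its own stage. Shared bases were LAD in siControl 4-cell embryos over 66.4% and in siRif1 8-cell embryos over 76.5%, and 8.88% were LAD in neither.

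**Figure D2:**
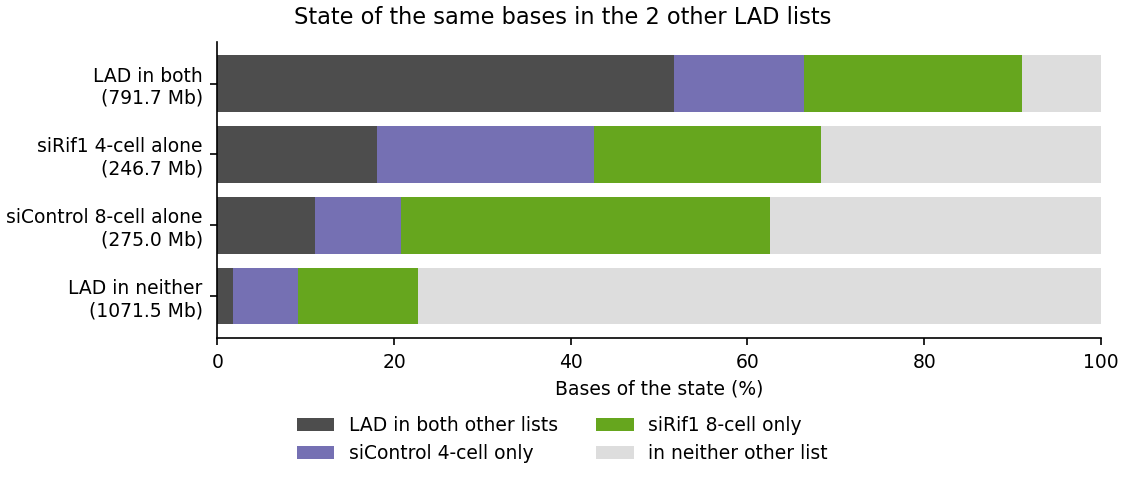
Bases in each state of the siRif1 4-cell and siControl 8-cell lists, as percent of that state on the x axis, split by their state in the siControl 4-cell and siRif1 8-cell lists, 1 bar per state from 1 pooled list per group. The part in neither of the other lists was 8.88% of bases LAD in both, 31.7% of those LAD in siRif1 4-cell embryos alone and 37.5% of those LAD in siControl 8-cell embryos alone.

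Of 20144 protein-coding genes placed by their midpoint, 3521 (17.5%) were LAD in both maps, 1313 (6.52%) in siRif1 4-cell embryos alone and 1774 (8.81%) in siControl 8-cell embryos alone. These shares are the background for the gene groups below, which were counted without a test. Without the 2611 genes of the clustered families the order of the departing shares turned, with 1200 genes (6.84%) LAD in siRif1 4-cell embryos alone and 1120 (6.39%) in siControl 8-cell embryos alone. Of the 1313 genes, 742 were also LAD in siControl 4-cell and 511 in siRif1 8-cell embryos, and 373 in neither. Of the 1774 genes, 439 and 813 were, and 757 in neither.

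Genes of the early lineages departed in both directions and in small numbers. Among 21 pluripotency and inner cell mass genes, 3 were LAD in siRif1 4-cell embryos alone, 2 in siControl 8-cell embryos alone, 0 in both and 16 in neither. Sox2 (chromosome 3, 34649995 to 34652461) lay in a 1.3-Mb siRif1 4-cell LAD, in a stretch of 0.6 Mb that siControl 8-cell LADs flanked on both sides. It was also LAD in siControl 4-cell and siRif1 8-cell embryos, so the siControl 8-cell list alone had it outside. The Sox2 midpoint lay only 0.051 Mb from a siControl 8-cell LAD. Zfp42, a marker of naive pluripotency, and Nr5a2, a nuclear receptor that acts in early embryos, were LAD in siRif1 4-cell embryos and outside in the other 3 lists. Both sat in 0.2-Mb extensions at the rim of siControl 8-cell LADs. Dppa2 and Dppa4, neighbouring genes of chromatin factors that prime early genes for activation, showed the opposite order to Sox2. They lay together in a 0.9-Mb stretch of chromosome 16 (48200001 to 49100000) that was outside LADs in siRif1 4-cell embryos and, at both genes, LAD in the other 3 lists. The Dppa2 and Dppa4 midpoints lay only 0.11 and 0.089 Mb from a siRif1 4-cell LAD.

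Of 16 trophectoderm genes, 1 was LAD in siRif1 4-cell embryos alone, 2 in siControl 8-cell embryos alone, 2 in both and 11 in neither. Fgfr2, a fibroblast growth factor receptor, was LAD in both 4-cell lists and outside in both 8-cell lists. The T-box regulator Eomes was LAD in both 8-cell lists and outside in both 4-cell lists, within a 0.2-Mb extension. Fgfr2 and Eomes are thus loci where the siRif1 4-cell map had the 4-cell state. Ascl2, a regulator of placental cells, was LAD in siControl 8-cell embryos and in no other list, in a freestanding 0.4-Mb LAD whose nearest siRif1 4-cell LAD was 4.07 Mb from the gene. Gata3 and Klf6 were LAD in both maps.

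Of 13 primitive endoderm genes, 2 were LAD in siRif1 4-cell embryos alone, 1 in siControl 8-cell embryos alone, 3 in both and 7 in neither. Pdgfra, the receptor that marks this lineage, and Dab2, an endocytic adaptor, were LAD by their midpoints in siRif1 4-cell embryos and in no other list. When any base counted or the start was used, Dab2 was LAD in both maps. Pdgfra lay in a 0.7-Mb siRif1 4-cell LAD that abutted a siControl 8-cell LAD, and its midpoint was 0.63 Mb from that LAD. Foxa2, Lama1 and Cubn were LAD in both maps.

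Among 27 genes that mark the 2-cell stage or the activation of the zygotic genome, 7 (25.9%) were LAD in siControl 8-cell embryos alone, 2 (7.41%) in siRif1 4-cell embryos alone, 5 in both and 13 in neither. Most of these genes belong to clusters of near-identical copies, at which reads may not be placed with certainty. Zscan4c and Zscan4d, of a family expressed in bursts at the 2-cell stage, lay in a 0.3-Mb extension on chromosome 7 (11000001 to 11300000), next to a shared LAD that held Zscan4b. Their midpoints lay 0.008 and 0.16 Mb from a siRif1 4-cell LAD. The deubiquitinase genes Usp17lc and Usp17ld lay together in a 0.7-Mb extension on chromosome 7 (102800001 to 103500000), while Usp17la, Usp17lb and Usp17le, also on chromosome 7, were LAD in both. These 4 departing genes and Tcstv3 were LAD in siControl 8-cell embryos and in no other list, whereas Zfp352 and the homeobox gene Obox2 were LAD in siRif1 8-cell embryos too. Duxf3, of the Dux array that activates 2-cell genes, was LAD in siRif1 4-cell embryos and in no other list, in a freestanding 0.9-Mb LAD on chromosome 10 (58200001 to 59100000). The translation factor gene Eif1a was LAD in both 4-cell lists and outside in both 8-cell lists.

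Maternal effect genes, whose products are stored in the egg, numbered 27, of which 5 (18.5%) were LAD in siControl 8-cell embryos alone, 2 (7.41%) in siRif1 4-cell embryos alone, 9 in both and 11 in neither. The 7 departing genes were outside LADs in siControl 4-cell and in siRif1 8-cell embryos. Nlrp5, of the subcortical maternal complex, and its neighbour Nlrp4e lay in a freestanding 0.9-Mb siControl 8-cell LAD on chromosome 7 (23300001 to 24200000), 2.49 and 2.57 Mb from a siRif1 4-cell LAD. Nlrp4f lay in a freestanding LAD of 1.2 Mb, and Nlrp9b and Oog1 in freestanding LADs of 0.1 and 0.2 Mb. In the other direction were Zar1, which acts at the egg-to-embryo transition, and Figla, an oocyte transcription factor. The Zar1 midpoint lay only 0.079 Mb from a siControl 8-cell LAD. Figla lay in a freestanding 1.6-Mb siRif1 4-cell LAD on chromosome 6 (84600001 to 86200000), 3.42 Mb from a siControl 8-cell LAD. The Nlrp genes Nlrp2, Nlrp4a, Nlrp9a and Nlrp9c, all on chromosome 7, were LAD in both maps and in siRif1 8-cell embryos, and outside in siControl 4-cell embryos.

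Of 27 genes of compaction, polarity and Hippo signalling, Mob1b and the kinase gene Stk3, both of the Hippo pathway, were LAD in siControl 8-cell embryos alone, 0 in siRif1 4-cell embryos alone, 3 in both and 22 in neither. Mob1b and Stk3 were also LAD in siControl 4-cell embryos and outside in siRif1 8-cell embryos, so both siControl lists had them in LADs and both siRif1 lists did not.

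Most genes of the lamina and of replication were outside LADs in both maps, as were 67.2% of all protein-coding genes. Rif1 itself (chromosome 2, 52072815 to 52126769), Lmna, Lmnb2 and the lamin B receptor gene Lbr were outside LADs in the 4 lists, and Lmnb1 was LAD in siControl 4-cell embryos alone. Of 16 lamina and envelope genes, 12 were LAD in neither map and 2, Syne1 and Tpr, in both. Tmpo lay in a 0.3-Mb stretch that closed a gap between siControl 8-cell LADs on chromosome 10 (91000001 to 91300000), and was LAD in the other 3 lists. Sun1, which joins the lamina to the cytoskeleton, lay in a siControl 8-cell LAD of 0.1 Mb and was outside in the other 3. Of 29 genes of Rif1, protein phosphatase 1 and replication initiation, 23 were LAD in neither map and 3 in both. The helicase gene Mcm4 was LAD in siRif1 4-cell embryos and in no other list. The origin recognition gene Orc4 was outside LADs in siRif1 4-cell embryos and LAD in the other 3 lists. The helicase cofactor gene Gins1 was LAD in siControl 8-cell embryos and in no other list. The Mcm4 midpoint lay 0.13 Mb from a siControl 8-cell LAD. Those of Orc4 and Gins1 lay 0.072 and 0.82 Mb from a siRif1 4-cell LAD. Of 28 heterochromatin and silencing factors, 4 were LAD in both maps, 24 in neither and 0 departed.

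Regulators of later development departed in both directions. Among 32 germ layer and neural regulators, 5 (15.6%) were LAD in siRif1 4-cell embryos alone, 2 (6.25%) in siControl 8-cell embryos alone, 8 in both and 17 in neither, beside 6.52% and 8.81% of all genes in the departing states. Pax9 and Nkx2-1, neighbours on chromosome 12, shared a 0.4-Mb extension (56500001 to 56900000). These genes, the LIM homeobox gene Lhx2 and the muscle gene Myf5 had a LAD in siRif1 4-cell embryos and in no other list. The Nkx2-1 and Myf5 midpoints lay 0.034 and 0.015 Mb from a siControl 8-cell LAD, those of Pax9 and Lhx2 0.20 and 0.85 Mb. Pax6, an eye and brain regulator, was LAD in both 4-cell lists and outside in both 8-cell lists, and its midpoint lay 0.016 Mb from a siControl 8-cell LAD. Pax3 was outside LADs in siRif1 4-cell embryos alone, in a stretch of 1.6 Mb that siRif1 4-cell LADs flanked on both sides. The forkhead genes Foxq1, Foxf2 and Foxc1, neighbours on chromosome 13, were LAD in both maps and outside in siControl 4-cell and siRif1 8-cell embryos.

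Of the first 40 departing genes from the short lists, 17 were LAD in siRif1 4-cell embryos alone and 23 in siControl 8-cell embryos alone. The 17 fell into 16 stretches with a median of 0.5 Mb, and their midpoints were a median of 0.14 Mb from the nearest siControl 8-cell LAD. By kind, 9 of the 17 genes lay in extensions, 5 in closures and 3 in freestanding stretches. The 23 fell into 19 stretches, also with a median of 0.5 Mb, at a median distance of 0.65 Mb from the nearest siRif1 4-cell LAD, with 8 in extensions, 5 in closures and 10 in freestanding stretches.

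Of 36 long genes of neurons and adhesion, 17 (47.2%) were LAD in both maps, against 17.5% of all genes. A further 11 (30.6%) were LAD in neither, against 67.2%. The departing shares were also above those of all genes, by few genes. In siRif1 4-cell embryos alone 3 (8.33%) were LAD, against 6.52%, and in siControl 8-cell embryos alone 5 (13.9%), against 8.81%. The 17 were all LAD in siRif1 8-cell embryos and 12 of them in siControl 4-cell embryos. By their midpoints, 3 contactin genes departed, and each was LAD in both maps when any base in a LAD counted. Cntn5 was LAD in both siRif1 lists and outside in both siControl lists. Cntn4 and Cntn6, neighbours on chromosome 6, lay in a 1.9-Mb stretch (104500001 to 106400000) that was LAD in siControl 8-cell embryos and closed a gap between siRif1 4-cell LADs. Nlgn1, a synaptic adhesion gene, was LAD in siRif1 4-cell embryos and in no other list by its midpoint, and in neither map when placed by its start or counted as a whole. Of 39 glutamate and GABA receptor genes, 7 were LAD in siControl 8-cell embryos alone, 1 in siRif1 4-cell embryos alone, 10 in both and 21 in neither. The 7 include Gabrg1, Gabra2 and Gabrb1, which are neighbours on chromosome 5, and Gabra6 and Gabrb2, which are neighbours on chromosome 11. When any base counted, Gabrb1, Gabrb2 and Grm7, also of the 7, were LAD in both maps. When the whole gene had to lie in a LAD or the start was used, Gabrb1 and Grm7 were in neither. Of 21 classical and type II cadherin genes, 2, Cdh9 and Cdh17, were LAD in siControl 8-cell embryos alone, 0 in siRif1 4-cell embryos alone and 5 in both. With LADs of at least 300 kb, Cdh9 was in neither map.

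Among 24 imprinted genes, 18 were LAD in neither map. Peg3 and its neighbour Usp29 on chromosome 7 were LAD in siRif1 4-cell and siControl 4-cell embryos and outside in siControl 8-cell embryos. In siRif1 8-cell embryos, Peg3 was LAD and Usp29 was outside. Dlk1 and Rtl1, neighbours on chromosome 12, and Ube3a were LAD in siControl 8-cell embryos and in no other list. The 39 Hox genes were LAD in neither map except for the 9 of the HoxD cluster (Hoxd1 to Hoxd13). The HoxD cluster was LAD in both siControl lists and outside in both siRif1 lists.

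Clustered chemosensory receptor families made up a large part of the genes that were LAD in siControl 8-cell embryos alone. Of 1097 olfactory receptor genes, 311 (28.4%) were LAD there alone, against 8.81% of all genes, 60 (5.47%) in siRif1 4-cell embryos alone, 334 in both and 392 in neither. Members of a cluster share a stretch and are not independent of each other. The longest departing run of the family held 88 genes from Olfr1123 over Olfr1180 to Olfr1234 on chromosome 2 (87418050 to 89373646), of which 13 were LAD in siControl 4-cell and 64 in siRif1 8-cell embryos. In the other direction, the longest run held 24 genes from Olfr160 over Olfr888 to Olfr251 on chromosome 9 (37711348 to 38378833). Chromosome 10 had 52 of its 68 olfactory receptor genes LAD in siControl 8-cell embryos alone and 0 in siRif1 4-cell embryos alone, whereas chromosome 9 had 14 and 32 of 129 and chromosome 11 had 0 and 15 of 83.

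Vomeronasal receptor genes, which detect pheromones, departed in 1 direction. Of 227 type 1 genes, 111 (48.9%) were LAD in siControl 8-cell embryos alone and 0 in siRif1 4-cell embryos alone, with 39 in both. Of 120 type 2 genes, these counts were 60 (50.0%), 0 and 30. The longest type 1 run held 31 genes from Vmn1r189 over Vmn1r205 to Vmn1r220 on chromosome 13 (22101727 to 23184524), of which 0 were LAD in siControl 4-cell and 28 in siRif1 8-cell embryos. The longest type 2 run held 14 genes from Vmn2r66 over Vmn2r73 to Vmn2r79 on chromosome 7 (84994645 to 87037968), of which 0 and 6 were. Many vomeronasal genes share sequence with near copies, at which reads may not be placed with certainty. Of 35 bitter taste receptor genes, 7 (20.0%) were LAD in siControl 8-cell embryos alone and 3 (8.57%) in siRif1 4-cell embryos alone. Over all genes these shares were 8.81% and 6.52%. Of the 7, Tas2r130, Tas2r107, Tas2r106, Tas2r104, Tas2r105 and Tas2r114 shared a 0.2-Mb extension on chromosome 6 (131500001 to 131700000). The 15 trace amine-associated receptor genes, a cluster on chromosome 10, were LAD in both maps and in siControl 4-cell embryos, and outside in siRif1 8-cell embryos.

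**Figure D3:**
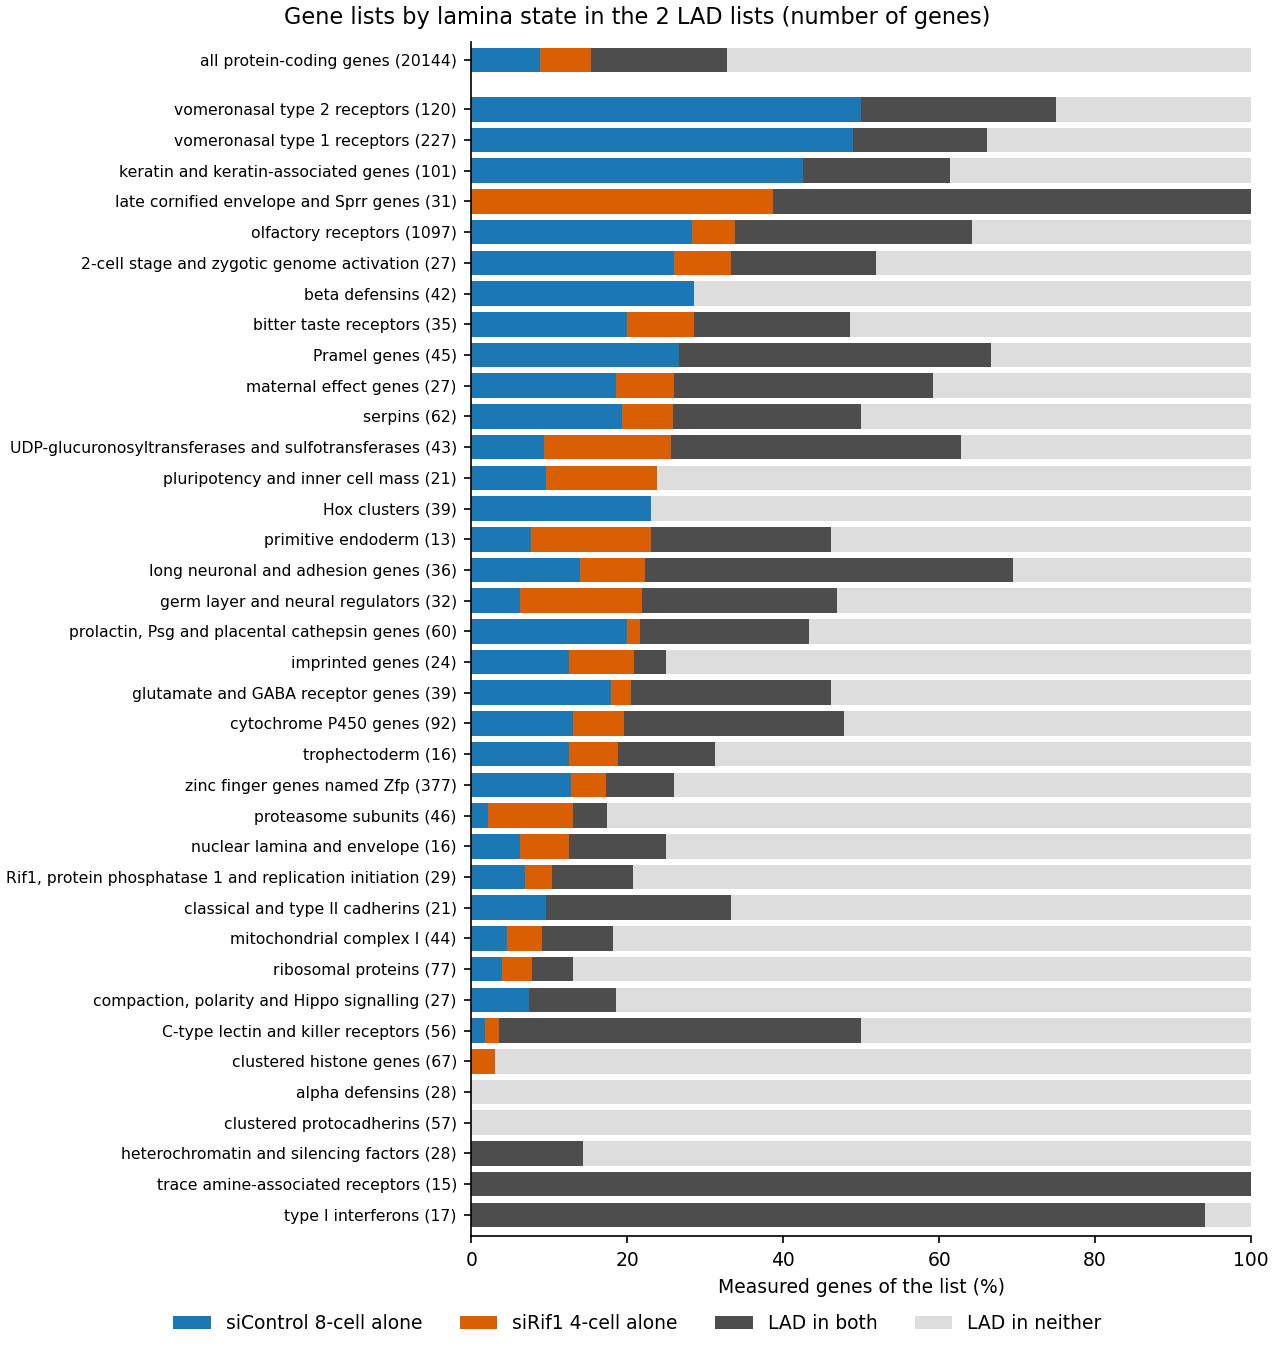
Measured genes of each list, in percent on the x axis, by their state in the siRif1 4-cell and siControl 8-cell lists, with the number of genes in brackets and all 20144 protein-coding genes in the upper bar. Vomeronasal type 1 (48.9%) and type 2 (50.0%) receptor genes had the largest shares LAD in siControl 8-cell embryos alone, against 8.81% of all genes, and members of a cluster are not independent points.

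Keratin and keratin-associated genes, which build hair and epithelia, departed as a block. Of 101, 43 (42.6%) were LAD in siControl 8-cell embryos alone, 0 in siRif1 4-cell embryos alone, 19 in both and 39 in neither. A run of 41 genes on chromosome 11 (99415664 to 100269951), from Krt12 over Krtap4-16 to Krt42, accounts for nearly all of them and was outside LADs in siControl 4-cell and in siRif1 8-cell embryos. The skin-barrier genes of chromosome 3 departed the other way. All 31 late cornified envelope and Sprr genes were LAD in siRif1 4-cell embryos, and 12 of them, Sprr1a, Sprr1b and 10 Sprr2 genes, were outside siControl 8-cell LADs. None of the 31 was LAD in siControl 4-cell or siRif1 8-cell embryos.

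Other clusters departed in blocks as well. The serpins, inhibitors of proteases, had 12 of 62 genes (19.4%) LAD in siControl 8-cell embryos alone and 4 (6.45%) in siRif1 4-cell embryos alone. Over all genes these shares were 8.81% and 6.52%. The 12 form a run on chromosome 13 (32842092 to 33496002) from Serpinb1a over Serpinb9c to Serpinb9g and were LAD in neither of the other lists, while Serpinb6e, Serpinb6c and Serpinb6a beyond it (33832345 to 34002794) were LAD in siRif1 4-cell embryos alone. Beta defensin genes, of antimicrobial peptides, had 12 of 42 (28.6%) LAD in siControl 8-cell embryos alone, as a run on chromosome 8 (19023404 to 19497775) from Defb38 over Defb6 to Defb7. UDP-glucuronosyltransferase and sulfotransferase genes, of detoxification, departed in opposite directions within chromosome 5. Of 43, 4 (9.30%) from Ugt2b34 to Ugt2b36 (86889770 to 87092555) were LAD in siControl 8-cell embryos alone. Another 7 (16.3%) from Ugt2a3 to Sult1e1 (87324972 to 87591611) were LAD in siRif1 4-cell embryos alone. Both runs were LAD in siRif1 8-cell and outside in siControl 4-cell embryos.

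Cytochrome P450 genes had 12 of 92 (13.0%) LAD in siControl 8-cell embryos alone, 6 (6.52%) in siRif1 4-cell embryos alone and 26 (28.3%) in both. Over all genes these shares were 8.81%, 6.52% and 17.5%, so the siRif1 4-cell share was that of all genes. A run of 6 of the Cyp3a group on chromosome 5 (145345149 to 146114978), from Cyp3a57 over Cyp3a11 to Cyp3a59, was LAD in both 8-cell lists and outside in both 4-cell lists. Pramel genes split 12, 0 and 18 of 45, and prolactin, Psg and placental cathepsin genes 12, 1 and 13 of 60, in that order. A run of 7 cathepsin genes on chromosome 13 (61000179 to 61570170), from Ctsj over Cts6 to Cts3, was likewise LAD in both 8-cell lists and outside in both 4-cell lists. The zinc finger genes named Zfp, of which 279 of 377 were LAD in neither map, had 48 (12.7%) LAD in siControl 8-cell embryos alone, 17 (4.51%) in siRif1 4-cell embryos alone and 33 in both. Of these, 9 formed a run on chromosome 17 (21926960 to 23193284) from Zfp942 over Zfp944 to Zfp40.

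Some clusters had the same state in both maps. Of 17 type I interferon genes, 16 were LAD in both, and so were 26 of the 56 C-type lectin and killer cell receptor genes, with Klrg1 LAD in siControl 8-cell embryos alone and Clec3b in siRif1 4-cell embryos alone. All 57 clustered protocadherin genes and all 28 alpha defensin genes were LAD in neither map, as were 65 of 67 clustered histone genes, with H2bc1 and H2ac1 LAD in siRif1 4-cell embryos alone. Of the housekeeping lists, beside 67.2% of all genes, 67 of 77 ribosomal protein genes, 38 of 46 proteasome genes and 36 of 44 mitochondrial complex I genes were LAD in neither map. Of the proteasome genes, 5, among them Psme4, were LAD in siRif1 4-cell embryos alone and 1, Psmd14, in siControl 8-cell embryos alone.

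The departing regions of the 2 maps differed in gene content and in the base composition of their promoters, in part with the clustered families. Protein-coding genes numbered 4.45 per Mb in shared LADs, 5.32 per Mb where siRif1 4-cell embryos alone had a LAD, 6.45 per Mb where siControl 8-cell embryos alone had one, and 12.6 per Mb in neither. Without the clustered families these densities were 3.66, 4.86, 4.07 and 11.5 per Mb, so the order of the departing states turned. Median gene lengths in the same order were 26.0, 29.6, 11.8 and 16.5 kb, and 36.5, 33.5, 22.4 and 17.9 kb without the families. Genes over 300 kb made up 7.27%, 5.26%, 3.16% and 1.12%. Bins without a protein-coding gene made up 41.8%, 37.9%, 46.4% and 26.8%. The median length of genes LAD in siControl 8-cell embryos alone was thus below that of genes in neither map with the families and above it without them.

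Promoters differed along with this. In the 250 bases before the gene start, known here for 16123 genes, the median GC content was 50.6% for genes LAD in both maps, 55.6% for those LAD in siRif1 4-cell embryos alone, 45.6% for those LAD in siControl 8-cell embryos alone and 57.2% for those in neither. A CG dinucleotide was missing from 12.0%, 4.58%, 19.6% and 4.38% of these promoters, and from 7.11% of all. The Sox2, Tmpo and Olfr1124 windows above lie outside the middle of their groups, whose GC quartiles were 46.8 and 63.6% for genes LAD in siRif1 4-cell embryos alone and 36.8 and 56.8% for those LAD in siControl 8-cell embryos alone. The large families carry much of this difference. Without them, the median GC contents were 54.0%, 56.8%, 52.0% and 58.4%, and the shares without a CG dinucleotide 6.27%, 2.89%, 8.04% and 2.84%, in the same order. GATC occurred in 40.6%, 39.3%, 41.8% and 40.6% of the promoters, so promoters with the site that Dam marks were about as frequent in each state. How dense the site is over the regions themselves was not measured.

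**Figure D4:**
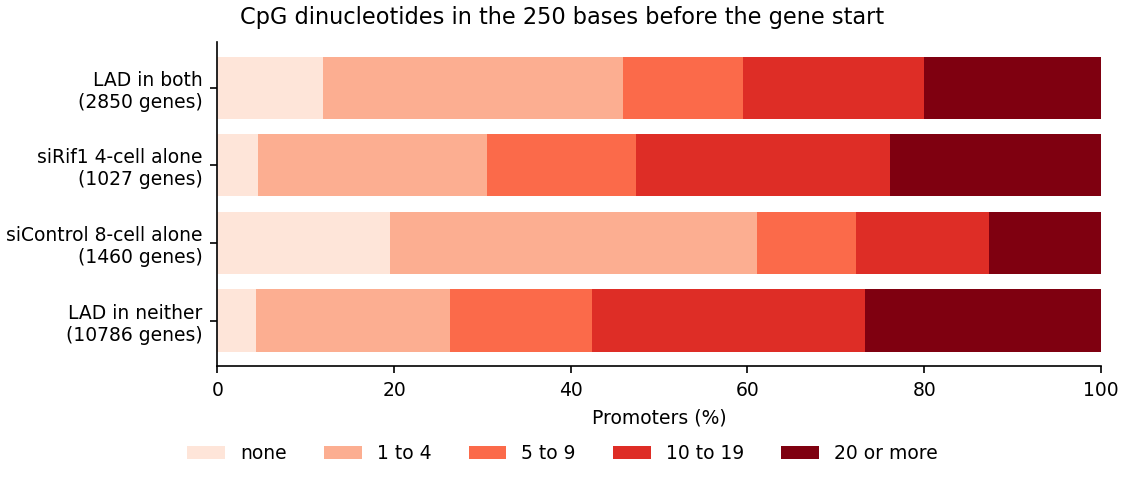
Promoters in percent (x axis) by the number of CG dinucleotides in the 250 bases before the gene start, 1 bar per state with the number of genes in brackets. Promoters without a CG dinucleotide made up 19.6% of genes LAD in siControl 8-cell embryos alone and 4.58% of those LAD in siRif1 4-cell embryos alone.

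Position along the chromosome set the departures apart as well. Mouse autosomes have their centromere at the start, and each span was divided at its middle. Bases that were LAD in siRif1 4-cell embryos alone made up 13.4% ± 7.45 of the centromere side and 7.43% ± 4.32 of the far side (SD, 19 chromosomes), and the centromere side was higher on 16 of 19. Bases that were LAD in siControl 8-cell embryos alone made up 12.4% ± 6.85 and 11.1% ± 6.34, higher on the centromere side of 9 chromosomes and on the far side of 10. The Jaccard index was 52.3% ± 8.02 on the centromere side and 66.3% ± 8.41 on the far side, which was higher on 19 of 19. The change along the chromosome was not even, since the index was 59.8% in the first 10 Mb, 49.3% from 10 to 20 Mb, 52.4% from 20 to 40 Mb, 53.4% from 40 to 60 Mb, 60.7% from 60 to 90 Mb and 70.4% beyond 90 Mb. Against the same siControl 8-cell list, the far side had the higher index on 15 of 19 chromosomes for siControl 4-cell embryos. For siRif1 8-cell embryos the far side was the higher on 16 of 19. In the first 10 Mb of the spans, siRif1 4-cell LADs covered 56.4% and siControl 8-cell LADs 50.5%, with siRif1 4-cell the higher on 13 of 19 chromosomes. In the last 10 Mb the coverages were 41.4% and 47.1%, with siRif1 4-cell the higher on 5 of 19.

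**Figure D5:**
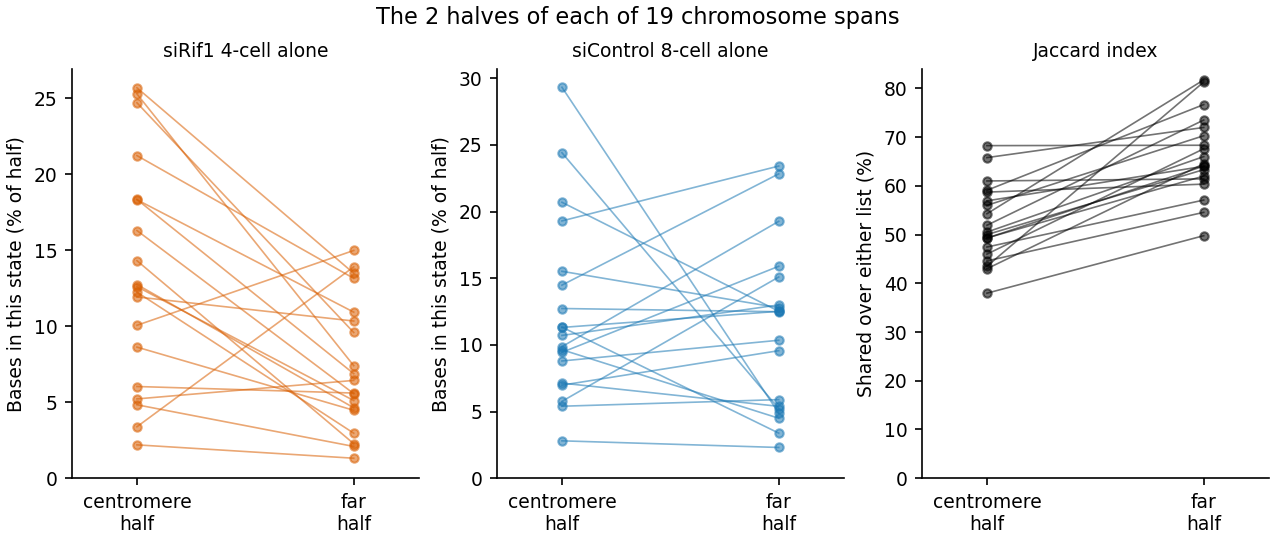
The centromere side and the far side of each of 19 chromosome spans, joined by a line per chromosome, as percent of that side LAD in siRif1 4-cell embryos alone (left), percent LAD in siControl 8-cell embryos alone (middle) and the Jaccard index of the lists in percent (right). The index was higher on the far side of 19 of 19 chromosomes, and the share LAD in siRif1 4-cell embryos alone was higher on the centromere side of 16.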

How the data were processed

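LaminB1 DamID was measured in 12 samples of 4 groups. Per the submitters' processing notes, the tools were Trimmomatic, Bowtie2, SAMtools and Picard, without versions, and the build was mm10 (GRCm38). The authors deposited 1 LAD list for each group, made from all 3 replicates, as start and end positions on a 100-kb grid, an other unit than counts or signal. How LADs were called, and whether unfused Dam was subtracted, is not given in the sources used here. The deposited score field was 0 throughout and was not used, and the depth is unknown.

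On each of 19 autosomes, the span covered the bases between the outermost LADs of the 4 lists. States were compared in 100-kb bins with Python 3.11.15, numpy 2.4.6 and pandas 2.3.3, drawn with matplotlib 3.10.9 and tested on simulated data. RefSeq genes of GRCm38.p6 were placed by their midpoint, leaving out 333 of 47042 entries with scaffold positions. Promoters came from RefSeq, GRCm38.p6, and matched 16123 of 20144 genes by gene identifier. Coordinates are 1-based. No test between groups was possible.

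The comparison and the 37 gene lists were chosen with earlier results of these data known. Genes were named by a rule: the 5 longest stretches in each state with up to 3 genes, the first 40 departing members of lists of at most 40 genes, Rif1 and the lamins with Lbr, the longest departing run of each larger family, the longest LADs and the extreme chromosomes. A gene and a stretch that the rule takes are not reported here. Matched members of lists, and departing members of the neuronal, cadherin, receptor, imprinted, Hox and Sprr lists, were chosen after their values were seen. Alternatives were shorter LADs left out, gaps bridged, borders left out, other overlap and border limits, other ways to place genes, and each chromosome left out.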

Additional observations from a re-analysis of the deposited data

How the results depend on the processing

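The overlap of the 2 maps depended most on how borders were treated. With the 100 kb on both sides of each border left out, 148.8 Mb were LAD in siRif1 4-cell embryos alone and 170.5 Mb in siControl 8-cell embryos alone, and the Jaccard index was 67.5%. Borders in common numbered 208 in either list at the same position, and 712 of the siRif1 4-cell and 716 of the siControl 8-cell borders at most 300 kb apart. Over each chromosome left out, the Jaccard index was 59.4 to 60.8%. With at least 25% of the length as the limit for a shared LAD, 551 of 644 siRif1 4-cell LADs were shared, and 351 with at least 80%. For the 746 siControl 8-cell LADs these counts were 569 and 392. Bridging gaps of up to 200 kb had little to act on, since 3 of 625 gaps in the siRif1 4-cell list and 5 of 727 in the siControl 8-cell list were that short. Of the first 40 departing genes from the short lists, 39 had the same state when any base in a LAD counted (not Dab2), 36 when the whole gene had to lie in it (not Zfp42, Nr5a2, Stk3 and Nlrp9b) and 37 with LADs of at least 300 kb (not Nlrp9b, Oog1 and Sun1). With those longer LADs, 3 maternal effect genes were LAD in siControl 8-cell embryos alone. Placing genes by their start, an alternative chosen after seeing the data, could be done for 31 of the 40, and 30 had the same state (not Dab2). No paired analysis was possible because each list is pooled over its 3 replicates, and for the same reason no replicate could be left out. The lists give no depth, so how far depth or the caller's threshold limits the short LADs was not tested.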
